A study of Mus musculus with 6 samples.

Results

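The 33 genes described here mark macrophages and other myeloid white blood cells, and all 33 were among the 18194 genes measured. They were chosen by name, as surface receptors, secreted proteins and enzymes of these cells, and each was read from the probe set with the highest mean log2 signal among those annotated to that gene alone. Messenger RNA was measured on 6 single-colour Affymetrix arrays of cultured tumour cells derived in mice from the surface epithelium, the cell layer that covers the ovary. The titles call all 6 samples P/K cells, an abbreviation the labels do not spell out, and no promoter or Cre driver is given in the sources used here. The groups differ in p53, a tumour suppressor: 2 arrays were homozygous for the R172H mutation (animals of 4 weeks), 2 heterozygous (9 and 12 weeks) and 2 had wild-type p53 (9 weeks each), all on a mixed strain background. Age and homozygosity cannot be told apart. For the homozygous samples another label gives a gene related to p53 in its place, and the titles were followed. The cells were freed with trypsin, grown in medium with serum and an insulin, transferrin and selenium supplement, and harvested without passage. The labels do not say whether the arrays of a group came from separate animals, so the tests measure the spread between these samples.

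Macrophages are phagocytes that settle in nearly every tissue, the ovary and its tumours included, and depend on the growth factor receptor CSF1R and the transcription factor PU.1, which Spi1 encodes. They take up particles through Fc and scavenger receptors, signal through the adaptors encoded by Tyrobp and Fcer1g, digest their cargo in lysosomes rich in lysozyme and cathepsin S, and secrete C1q, the first component of complement. In bulk RNA, fewer myeloid cells and less RNA in each of them cannot be told apart.

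PU.1 is known to bind the PU box, GAGGAA, in promoters of myeloid genes. RefSeq promoter windows of 250 bases before to 50 bases after the start (build GRCm38.p6) were matched by symbol for 26 of the 33 genes. GAGGAA, or TTCCTC on the other strand, was found in at least 1 window of 15 of these 26 genes (57.7%), against 31.3% of the 27025 genes in the promoter table. Counted by window, the shares were 54.8% of 31 and 28.3% of 32851. A match to these 6 letters describes the sequence and not a binding site. The promoters shown hold the box and belong to genes whose signals were lower in both homozygous arrays than in all other arrays: that of Ctss at chr3:95526536-95526835 (plus strand), of Cd53 at chr3:106790100-106790399 (minus strand), of C1qb at chr4:136886151-136886450 (minus strand) and of C1qc at chr4:136892865-136893164 (minus strand). Each runs 5′ to 3′ along the gene's strand, with the PU box in capitals.
Ctss: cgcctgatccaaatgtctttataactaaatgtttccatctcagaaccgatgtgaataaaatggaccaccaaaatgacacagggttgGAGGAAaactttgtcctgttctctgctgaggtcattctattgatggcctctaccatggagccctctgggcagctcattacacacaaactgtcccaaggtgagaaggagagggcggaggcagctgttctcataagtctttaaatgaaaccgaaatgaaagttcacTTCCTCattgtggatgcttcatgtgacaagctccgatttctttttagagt
Cd53: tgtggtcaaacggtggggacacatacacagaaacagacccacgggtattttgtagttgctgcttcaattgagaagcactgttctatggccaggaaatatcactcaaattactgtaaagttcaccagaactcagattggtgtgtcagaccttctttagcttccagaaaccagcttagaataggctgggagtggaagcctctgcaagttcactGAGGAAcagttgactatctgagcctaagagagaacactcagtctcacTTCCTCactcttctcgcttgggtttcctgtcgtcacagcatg
C1qb: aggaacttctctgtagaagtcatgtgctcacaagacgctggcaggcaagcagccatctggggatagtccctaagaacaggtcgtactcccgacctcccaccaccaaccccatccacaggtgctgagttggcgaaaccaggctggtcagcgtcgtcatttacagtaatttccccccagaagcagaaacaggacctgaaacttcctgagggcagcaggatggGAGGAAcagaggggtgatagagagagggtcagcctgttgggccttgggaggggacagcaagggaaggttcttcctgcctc
C1qc: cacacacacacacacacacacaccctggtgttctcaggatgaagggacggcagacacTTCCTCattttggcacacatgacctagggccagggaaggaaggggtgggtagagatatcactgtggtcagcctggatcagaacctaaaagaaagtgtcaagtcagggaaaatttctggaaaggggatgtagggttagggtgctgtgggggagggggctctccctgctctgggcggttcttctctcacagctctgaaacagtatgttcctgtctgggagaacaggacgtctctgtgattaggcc
The box begins 164 bases before the start and at base 1 in Ctss, 39 bases before it and at base 9 in Cd53, 30 bases before it in C1qb and 193 bases before it in C1qc. No box was found in these windows of Lyz1, Lyz2, Srgn, Mpeg1, Fcgr2b, Fcer1g or Hdc.

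Most myeloid markers were above background in the heterozygous and wild-type arrays, and fewer were so in the homozygous arrays. Above a signal of 25, just over the highest of 18 values of a bacterial control (24.5), 13 and 8 of the 33 markers were found in homozygous arrays 1 and 2, 30 and 30 in the heterozygous arrays, and 27 and 27 in the wild-type arrays. Of all 18194 genes, 68.5% and 71.9% passed that level in the homozygous arrays, 72.7% and 75.6% in the heterozygous and 77.4% and 74.4% in the wild-type arrays. Above a signal of 100, 2 and 2 markers were left in the homozygous arrays, 22 and 18 in the heterozygous and 17 and 10 in the wild-type arrays. In all 4 heterozygous and wild-type arrays, 25 markers were above 25. Of these, 11 were at or under 25 in both homozygous arrays, 8 in 1 of them and 6 in neither. Of the 12047 genes above 25 in the same 4 arrays, 2.8% were at or under 25 in both homozygous arrays. The 25 markers were picked by the other 4 arrays, so the split is a description and not a test.

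**Figure D1:**
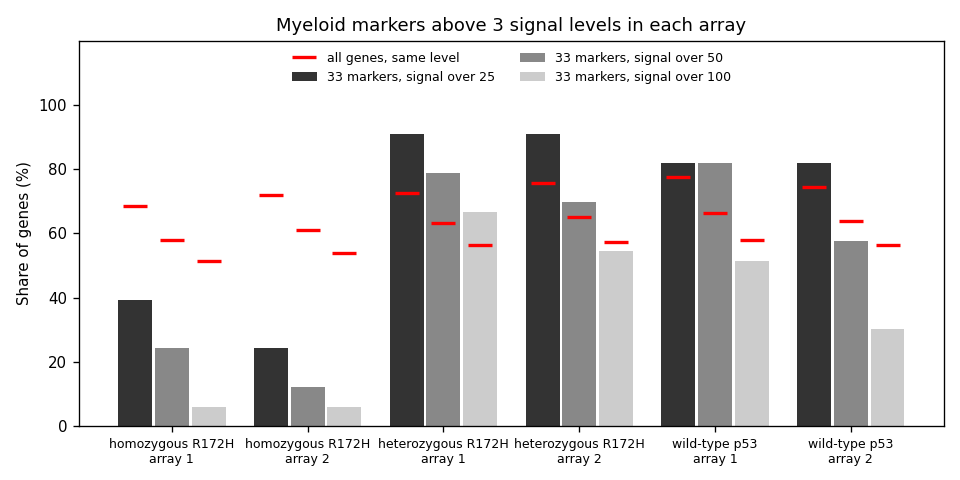
Share of the 33 myeloid markers (bars) and of all 18194 genes (red dashes) with a signal over 25, 50 or 100 in each array, as percent. In the homozygous arrays 39.4% and 24.2% of the markers lay over 25, against 90.9% in each heterozygous and 81.8% in each wild-type array, while the share of all genes lay between 68.5% and 77.4%.

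With signals under 25 raised to 25, both homozygous arrays lay below both wild-type arrays for 21 of the 33 markers, above them for 0, and overlapped for 12. The same held for 26.3% of all genes downwards and 18.3% upwards. Against the heterozygous arrays, 25 markers lay below, 0 above and 8 overlapped, where 25.4% of all genes lay below and 19.3% above. The median log2 difference over the 33 markers on that scale was -1.33 for homozygous minus wild-type and -2.18 for homozygous minus heterozygous, and 0.00 in both comparisons over all genes.

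Single genes were tested with limma across 10916 genes whose mean log2 signal reached the 40th percentile. Of the 33 markers 15 passed that filter. Because it acts on the mean of all 6 arrays, several markers bright in 4 arrays and near or under background in the homozygous pair, such as C1qa, Tyrobp and Cd53, stayed under it and were not tested. Homozygous against wild-type, Lyz1, Lyz2, Ctss, Mpeg1, Srgn and Hdc fell, 6 of the 15, and 0 rose (adjusted p under 0.05), against 2.25% of all tested genes called lower and 0.412% called higher. Homozygous against heterozygous, the same 6 and also Fcgr2b and Fcer1g fell, 8 of 15, and 0 rose, against 3.22% and 0.87%. A count over 15 markers that passed a filter is not a count over all 33. Lyz1 and Lyz2 may not be separate calls, since these paralogs cannot be told apart here. Of those called, Lyz1, Lyz2, Ctss, Srgn and Hdc were under 25 in both homozygous arrays. Mpeg1 (27.8 and 19.4) and Fcer1g (43.0 and 28.6) also lay there under the geometric mean of 60.3 at which the filter starts. All of these genes passed the filter only through the other 4 arrays. The counts beside the shares of all tested genes are therefore a description and not a test of the set.

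**Figure D2:**
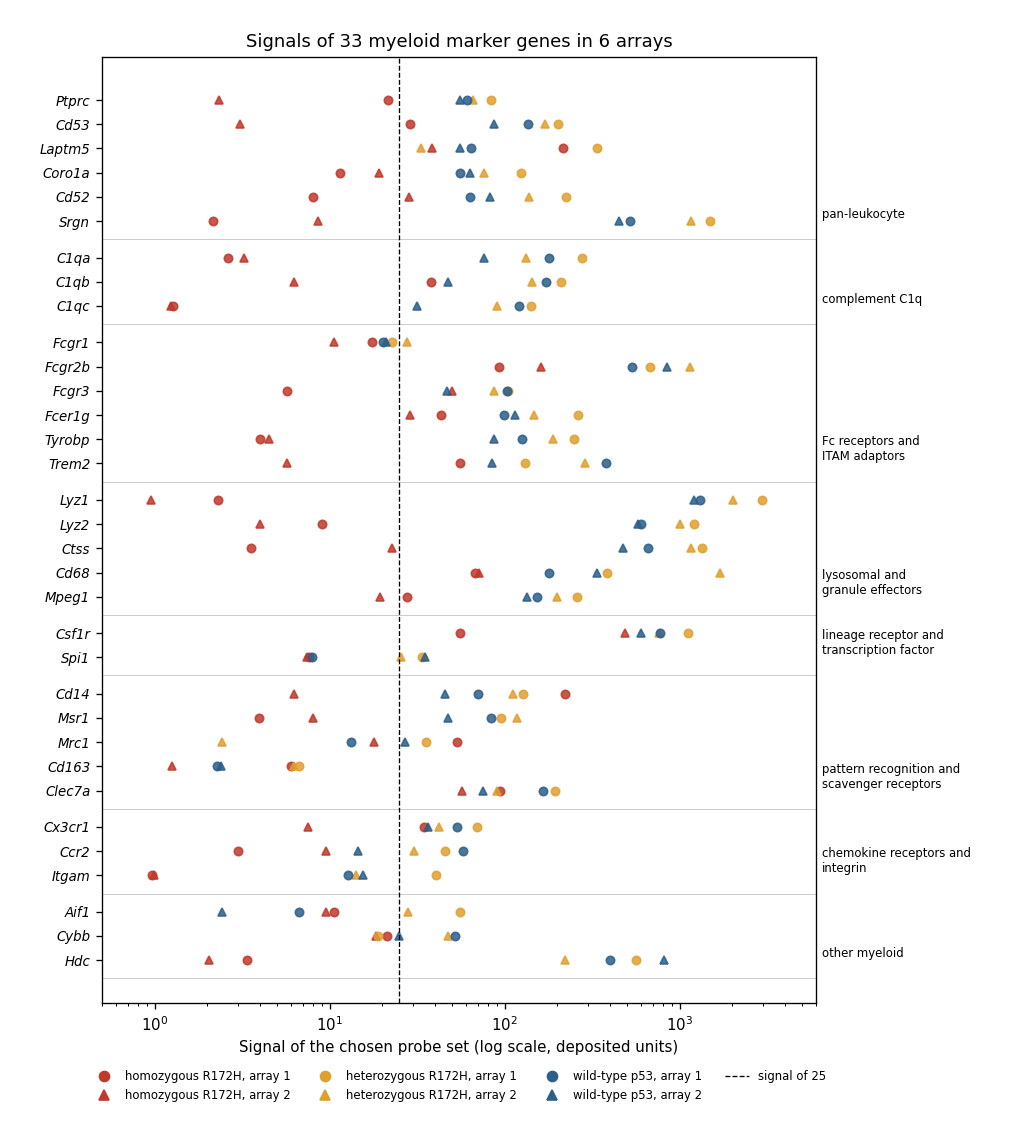
Signal of each marker in each of the 6 arrays on a log axis, grouped by role, with a dashed line at 25. Circles and triangles are arrays 1 and 2 of a group. Both homozygous arrays lie left of the line for Srgn, Lyz1, Lyz2, Ctss, C1qa, C1qc, Tyrobp and Hdc, while Cd14, Clec7a and Laptm5 have a homozygous array among or above the others.

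For 5 of 6 pan-leukocyte genes both homozygous arrays lay below both arrays of either other group, with signals under 25 raised to 25. Of all genes, 26.3% lay below the wild-type and 25.4% below the heterozygous arrays. Ptprc encodes CD45, the phosphatase on the surface of all white blood cells. It had signals of 21.6 and 2.3 in homozygous, 83.8 and 65.9 in heterozygous and 61.1 and 55.5 in wild-type arrays, so the homozygous values were at background and the others modestly above it. Cd53, a leukocyte tetraspanin, read 28.9 and 3.1 in homozygous, 201 and 169 in heterozygous and 135 and 86.7 in wild-type arrays. Coro1a, the actin regulator coronin 1A of leukocytes, read 11.5 and 19.0 in homozygous, 124 and 75.9 in heterozygous and 55.7 and 63.2 in wild-type arrays. By these chosen probe sets the heterozygous arrays were the highest for both genes. Another Coro1a probe set read 6.5 and 21.1 in homozygous, 63.8 and 28.3 in heterozygous and 45.0 and 17.6 in wild-type arrays, where homozygous and wild-type arrays overlapped. The remaining probe sets of Ptprc, Cd53 and Coro1a stayed under 25 in all 6 arrays. Cd52, a small glycoprotein on leukocytes, had signals of 8.0 and 28.5 in homozygous, 223 and 138 in heterozygous and 63.5 and 82.5 in wild-type arrays, without overlap between any of the groups.

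Srgn encodes serglycin, the proteoglycan of leukocyte granules, and was among the markers with the widest separation. Its signals were 2.1 and 8.6 in homozygous, 1480 and 1159 in heterozygous and 517 and 451 in wild-type arrays. Both homozygous arrays were under background, and serglycin was at least 52.4-fold lower than in heterozygous (adjusted p = 0.0150 by limma) and at least 19.3-fold lower than in wild-type cells (adjusted p = 0.0192 by limma). Laptm5, a lysosomal membrane protein of haematopoietic cells, was the exception in this group. Its chosen probe set read 215 and 38.6 in homozygous, 334 and 33.1 in heterozygous and 64.2 and 55.6 in wild-type arrays, so arrays of 1 group differed more than the groups did. Another of its 5 probe sets read 13.9 and 3.5 in homozygous, 134 and 124 in heterozygous and 105.5 and 71.3 in wild-type arrays, and did not overlap. The probe sets of Laptm5 therefore disagree, and the rule takes the less repeatable one.

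Lysosomal and granule effectors had the largest median difference of the marker groups. With signals raised to 25, the median log2 difference was -4.49 against wild-type and -5.45 against heterozygous arrays. Both homozygous arrays lay below all 4 others for all 5 members. Of all genes, 26.3% lay below both wild-type and 25.4% below both heterozygous arrays. Lyz2 encodes lysozyme M, the bacterial cell wall enzyme of macrophages and neutrophils. It had signals of 9.0 and 4.0 in homozygous, 1200 and 999 in heterozygous and 603 and 577 in wild-type arrays. That is at least 43.8-fold lower than in heterozygous cells (adjusted p = 0.0106 by limma) and at least 23.6-fold lower than in wild-type cells (adjusted p = 0.0118 by limma). Lyz1, the neighbouring paralog on chromosome 10, read 2.3 and 0.96 in homozygous, 2936 and 2012 in heterozygous and 1308 and 1206 in wild-type arrays. It was at least 97.2-fold lower than in heterozygous and at least 50.2-fold lower than in wild-type cells (adjusted p = 0.0106 and 0.0110 by limma). Its chosen probe set is of a type that can also bind related transcripts, and its other probe set of that type read 0.33 and 0.61 in homozygous, 1414 and 880 in heterozygous and 850 and 546 in wild-type arrays. The remaining one stayed between 2.5 and 31.2 in all 6 arrays. The probe sets of Lyz1 therefore disagree, and the paralogs cannot be told apart here.

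Ctss encodes cathepsin S, the protease that prepares antigens in phagocytes, and its promoter is the first of those printed. It had signals of 3.6 and 22.8 in homozygous, 1347 and 1152 in heterozygous and 660 and 476 in wild-type arrays. It was at least 49.8-fold lower than in heterozygous cells (adjusted p = 0.0299 by limma) and at least 22.4-fold lower than in wild-type cells (adjusted p = 0.0435 by limma). Mpeg1, a pore-forming protein of macrophages, read 27.8 and 19.4 in homozygous, 258 and 198 in heterozygous and 154 and 134 in wild-type arrays. With 1 of the homozygous arrays under background, it fell by 3.28 ± 0.29 (SE) on the log2 scale against heterozygous arrays (adjusted p = 0.0155 by limma). Against wild-type arrays it fell by 2.63 ± 0.29 (adjusted p = 0.0268 by limma). Cd68, the lysosomal glycoprotein often used to stain macrophages, stayed above background everywhere, at 67.7 and 71.3 in homozygous, 386 and 1687 in heterozygous and 180 and 337 in wild-type arrays. Its groups did not overlap, but the spread within the heterozygous pair was wide and it did not pass (adjusted p = 0.0642 and 0.181 by limma against heterozygous and wild-type arrays).

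The 3 chains of complement C1q, which macrophages secrete as 1 complex, were lower in both homozygous arrays than in all others. With signals raised to 25, 26.3% of all genes lay below both wild-type and 25.4% below both heterozygous arrays. C1qa had signals of 2.6 and 3.2 in homozygous, 277 and 132 in heterozygous and 179 and 75.9 in wild-type arrays. C1qc had 1.3 and 1.2 in homozygous, 142 and 90.1 in heterozygous and 121 and 31.4 in wild-type arrays. C1qb had 38.1 and 6.2 in homozygous, 211 and 143 in heterozygous and 172.3 and 47.4 in wild-type arrays. All 3 chains placed the other 4 arrays in the same order, from heterozygous array 1 over wild-type array 1 and heterozygous array 2 down to wild-type array 2, so the heterozygous and wild-type groups overlapped. Both homozygous arrays lay under background for C1qa, which was at least 7.65-fold lower than in heterozygous and at least 4.66-fold lower than in wild-type cells, and for C1qc, at least 4.52-fold and 2.47-fold lower. Neither was tested, since both stayed under the filter. C1qb was tested and did not pass (adjusted p = 0.101 and 0.176 by limma against heterozygous and wild-type arrays), although its other probe sets read 0.59 and 0.76, and 0.41 and 5.0, in the homozygous arrays.

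Fc receptors and their adaptors were divided. Tyrobp encodes DAP12, the adaptor of many activating myeloid receptors, and read 4.0 and 4.5 in homozygous, 249 and 189 in heterozygous and 126 and 86.5 in wild-type arrays. It was at least 8.69-fold lower than in heterozygous and at least 4.18-fold lower than in wild-type cells and was not tested. Fcer1g, the Fc receptor gamma chain, kept some signal in homozygous cells, at 43.0 and 28.6, against 261 and 147 in heterozygous and 99.5 and 115 in wild-type arrays. It fell by 2.48 ± 0.38 on the log2 scale against heterozygous arrays (adjusted p = 0.0405 by limma), while the difference of -1.61 ± 0.38 against wild-type arrays did not pass (adjusted p = 0.0785 by limma).

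Fcgr2b encodes the inhibitory Fc receptor of macrophages and B cells. It had signals of 93.0 and 160 in homozygous, 675 and 1141 in heterozygous and 530 and 844 in wild-type arrays, so array 2 was the higher in each group. It fell by 2.85 ± 0.44 on the log2 scale against heterozygous arrays (adjusted p = 0.0412 by limma), and the difference of -2.45 ± 0.44 against wild-type arrays did not pass (adjusted p = 0.0567 by limma). Another of its probe sets gave a wider gap, with 17.4 and 14.8 in homozygous, 1502 and 2400 in heterozygous and 1092 and 2071 in wild-type arrays. Fcgr3, an activating low-affinity receptor, read 5.7 and 49.9 in homozygous, 104 and 86.4 in heterozygous and 103 and 46.8 in wild-type arrays and overlapped with wild-type. Fcgr1, the high-affinity receptor, lay between 10.5 and 27.5 in all 6 arrays, close to background. Trem2, a lipid receptor that signals through DAP12, read 55.7 and 5.7 in homozygous, 130 and 288 in heterozygous and 379 and 84.8 in wild-type arrays and did not pass in either comparison. Its other probe set was highest in homozygous array 2, with 32.5 and 71.5 in homozygous, 40.5 and 2.8 in heterozygous and 31.4 and 33.9 in wild-type arrays.

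**Figure D3:**
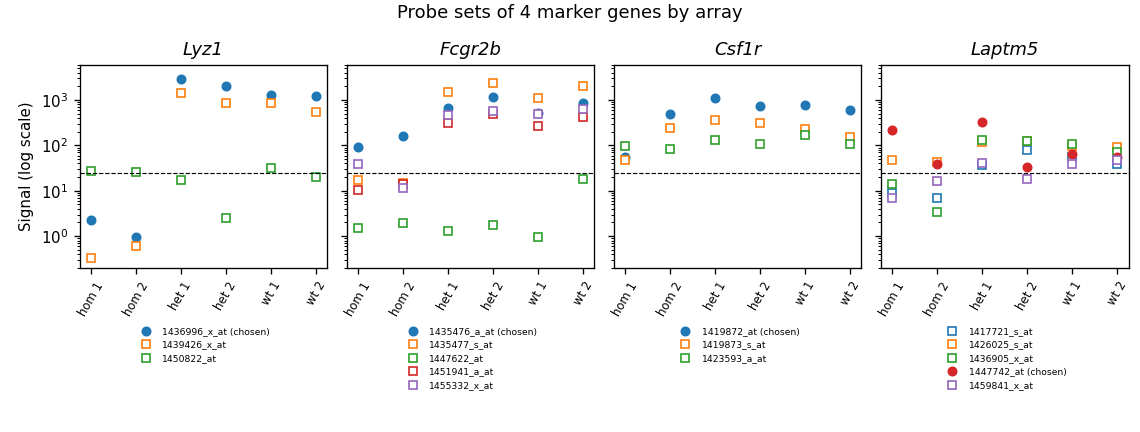
Signals of every probe set annotated to Lyz1, Fcgr2b, Csf1r and Laptm5 alone, by array on a log axis, with filled circles for the probe set used and open squares for the others. For Lyz1 and Fcgr2b most probe sets are low in both homozygous arrays, for Csf1r homozygous array 2 lies near the other 4 arrays, and for Laptm5 the probe set used has 215 in homozygous array 1.

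Csf1r, the receptor for colony-stimulating factor 1 on which macrophages depend, did not follow the lysozymes. It had signals of 55.7 and 488 in homozygous, 1111 and 756 in heterozygous and 770 and 599 in wild-type arrays. Homozygous array 2 thus lay just under the wild-type arrays although it was at background for Lyz2, C1qa and Tyrobp. A second Csf1r probe set gave 47.2 and 239 in homozygous, 368 and 315 in heterozygous and 226 and 154 in wild-type arrays, and there array 2 lay above both wild-type arrays. The remaining Csf1r probe set gave 99.5 and 82.9 in homozygous, 135 and 110 in heterozygous and 171 and 110 in wild-type arrays, without overlap. Csf1r did not pass against heterozygous arrays, nor against wild-type arrays, where its log2 difference was -2.04 ± 1.01 (adjusted p = 0.241 by limma). It passed without homozygous array 2, at -3.61 ± 0.37 (adjusted p = 0.00227 by limma), and not without homozygous array 1, at -0.48 ± 0.37 (adjusted p = 0.467 by limma). Spi1, which encodes PU.1, was dim throughout, with 7.7 and 7.4 in homozygous, 33.8 and 25.5 in heterozygous and 8.0 and 34.8 in wild-type arrays, so that a wild-type array was as low as the homozygous ones.

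Of 5 receptors for microbial patterns and scavenger receptors, 1 lay below both other groups without overlap, near the share of all genes (26.3% against wild-type and 25.4% against heterozygous arrays). Msr1, the class A scavenger receptor, read 3.9 and 8.1 in homozygous, 95.7 and 118 in heterozygous and 83.6 and 47.4 in wild-type arrays and was at least 4.24-fold lower than in heterozygous and at least 2.52-fold lower than in wild-type cells, untested. Its other probe sets did not separate the groups with signals raised to 25. Among them, 1 read 3.9 and 34.8 in homozygous, 10.5 and 7.5 in heterozygous and 44.5 and 10.2 in wild-type arrays. Cd14, the co-receptor for lipopolysaccharide, had its highest signal in homozygous array 1 and its lowest in array 2, at 222 and 6.3, against 128 and 112 in heterozygous and 70.4 and 45.8 in wild-type arrays. Its log2 difference of -0.60 ± 1.61 from wild-type arrays did not pass (adjusted p = 0.824 by limma), and it rested on which homozygous array was kept. Without array 2 it was 1.97 ± 0.36 (adjusted p = 0.0159 by limma), and without array 1 it was -3.18 ± 0.36 (adjusted p = 0.0110 by limma). Clec7a, the beta-glucan receptor dectin-1, overlapped in all groups, with 94.1 and 56.8 in homozygous, 195 and 90.8 in heterozygous and 165 and 75.4 in wild-type arrays. Mrc1, the mannose receptor, lay between 2.4 and 53.2 with its highest value in homozygous array 1. Cd163, the haemoglobin scavenger receptor of resident macrophages, was at background in all 6 arrays, with 6.7 as its highest signal. It was the only marker at or under 25 in every array.

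Chemokine receptors and the integrin chain were dim. Cx3cr1, the fractalkine receptor, read 34.7 and 7.5 in homozygous, 69.1 and 42.2 in heterozygous and 53.7 and 36.3 in wild-type arrays. Its other probe set read 21.2 and 34.2 in homozygous, 15.9 and 3.4 in heterozygous and 18.3 and 4.2 in wild-type arrays. Ccr2, the receptor that draws monocytes into tissue, read 3.0 and 9.6 in homozygous, 45.7 and 30.3 in heterozygous and 57.8 and 14.6 in wild-type arrays. Itgam, which encodes CD11b, exceeded 25 in heterozygous array 1 alone (40.4) and read 0.96 and 0.99 in homozygous arrays. Of the remaining markers, Cybb, the catalytic subunit of the phagocyte NADPH oxidase, lay between 18.3 and 52.2 by its chosen probe set, with overlap of all groups once raised to 25. A further probe set read 8.5 and 2.8 in homozygous, 120 and 55.6 in heterozygous and 38.2 and 72.8 in wild-type arrays, so the probe sets disagree. Aif1, which encodes the macrophage protein IBA1, read 10.6 and 9.5 in homozygous, 55.3 and 28.1 in heterozygous and 6.7 and 2.4 in wild-type arrays, so here the heterozygous arrays stood above background and both other groups under it.

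Hdc encodes histidine decarboxylase, which makes histamine in mast cells, basophils and some other myeloid cells. Its signals were 3.4 and 2.0 in homozygous, 564 and 222 in heterozygous and 397 and 808 in wild-type arrays. Both homozygous arrays were under background, and Hdc was at least 14.1-fold lower than in heterozygous and at least 22.7-fold lower than in wild-type cells (adjusted p = 0.0150 and 0.0136 by limma). Unlike the lysozymes, it was highest in wild-type array 2 and lowest of those 4 arrays in heterozygous array 2. Another Hdc probe set read 2.5 and 2.9 in homozygous, 153 and 11.3 in heterozygous and 54.1 and 247 in wild-type arrays. Heterozygous array 2 was under background there, so the bound against heterozygous cells holds for the chosen probe set alone. Of 9 measured markers of mast cells and basophils, 3 were at or under 25 in all 6 arrays, against 2339 of all 18194 genes. Among the 3 were Cpa3, which encodes a mast cell protease, and Fcer1a, which encodes the chain of the IgE receptor that binds IgE. Others of the list varied. Cma1 read 110 and 9.8 in homozygous, 21.6 and 19.1 in heterozygous and 2.5 and 6.2 in wild-type arrays. Ms4a2 read 2.9 and 2.3 in homozygous, 30.1 and 29.7 in heterozygous and 18.9 and 3.1 in wild-type arrays. These 4 genes were named outside the rule for genes of other lists. The summed signal of that list lay between 583 and 688 in homozygous, 233 and 347 in heterozygous and 261 and 438 in wild-type arrays. Gata2, a transcription factor also active outside blood and the only tested gene of the list, read 343 and 574 in homozygous, 107 and 168 in heterozygous and 328 and 154 in wild-type arrays and did not pass.

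**Figure D4:**
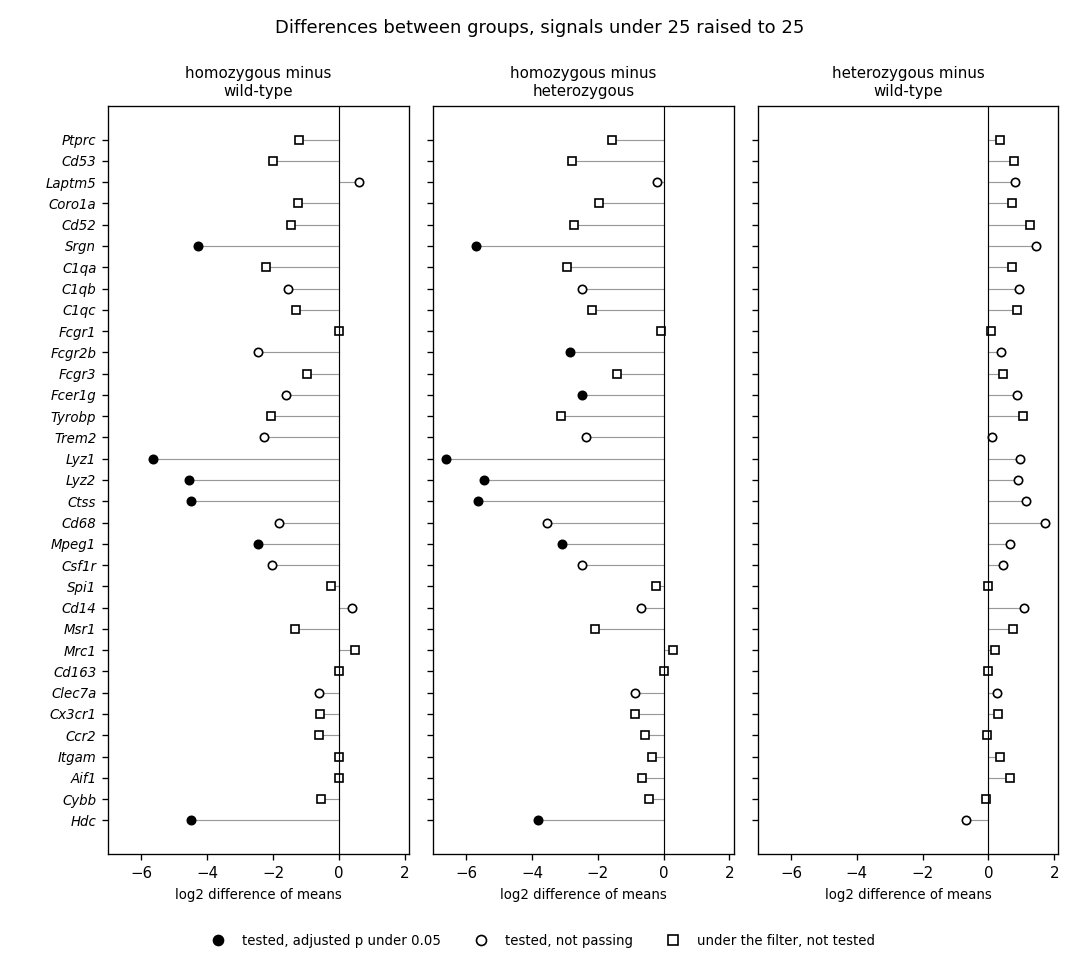
Log2 difference of group means for each marker in the 3 comparisons, with signals under 25 raised to 25. Filled circles passed limma on the unraised signals, open circles were tested and did not pass, and squares were under the filter. Differences reach -5.65 and -6.60 for Lyz1 in the first 2 panels, and 28 of the 33 lie above 0 in the third, with a median of 0.66.

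Many markers read higher in the heterozygous than in the wild-type arrays, and no single gene passed the test. Both heterozygous arrays lay above both wild-type arrays for 15 of the 33 markers, below them for 0, and overlapped for 18, with signals under 25 raised to 25. Of all genes 9.79% lay above and 11.3% below. The 15 were all 5 lysosomal and granule effectors, 5 of the 6 pan-leukocyte genes, Tyrobp, Fcer1g, Cd14, Msr1 and Aif1. The median log2 difference over the 33 markers was 0.66, against 0.00 over all genes. Srgn had a difference of 1.44 ± 0.66, Cd68 of 1.71 ± 0.74, Ctss of 1.15 ± 0.87, Lyz1 of 0.95 ± 0.47, Lyz2 of 0.89 ± 0.42 and Mpeg1 of 0.65 ± 0.29 (SE). None of the 15 tested markers passed limma's test, with 0 also at an unadjusted p under 0.05, and 0.0% of all tested genes were called in either direction (71 of 10916 at an unadjusted p under 0.05).

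Heterozygous array 1 and wild-type array 2 were the most alike of all 15 pairs of arrays, with an SD of 0.31 for their log2 difference over tested genes, against 0.55 within the heterozygous and 0.60 within the wild-type group. Between these alike arrays 27 of 33 markers were higher in the heterozygous one, 3 lower and 3 equal with signals raised to 25, with a median difference of 1.01, where 35.9% of all genes were higher. Over the 25 markers above 25 in all 4 heterozygous and wild-type arrays, heterozygous array 1 was the highest for 20 and wild-type array 2 the lowest for 18. The markers thus differed within the wild-type group as well, C1qa having 179 in array 1 and 75.9 in array 2.

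Genes that work with these markers were read from further lists. MHC class II genes, which present antigen on macrophages, dendritic and B cells, lay below both wild-type and both heterozygous arrays for 6 of 6 measured members, against 26.3% and 25.4% of all genes. H2-Aa read 33.2 and 30.5 in homozygous, 440 and 173 in heterozygous and 725 and 154 in wild-type arrays, and H2-Ab1 5.2 and 1.6, 301 and 247, and 364 and 188 in the same order of groups. The 3 tested class II genes, H2-Aa and Cd74 among them, did not pass limma in either comparison with homozygous cells, with adjusted p between 0.0754 and 0.158 (3 of 3 at an unadjusted p under 0.05 in each). Between the other groups 0 of 6 were higher in both heterozygous arrays than in both wild-type arrays, and their median log2 difference was -0.31. Of 29 measured further macrophage genes, 0 of 9 tested fell against wild-type arrays, where 2.25% of all tested genes did (at an unadjusted p under 0.05, 5 of 9 were lower, and 1881 of all 10916). Against heterozygous arrays 2 of 9 fell, where 3.22% of all tested genes did: Alox5ap, which activates 5-lipoxygenase, fell by 2.18 ± 0.29 (adjusted p = 0.0343 by limma) and Gpnmb, a lysosomal glycoprotein of phagocytes, fell by 2.18 ± 0.34 (adjusted p = 0.0415 by limma). Without overlap, both homozygous arrays lay below the wild-type arrays for 13 of the 29, against 26.3% of all genes. They lay below the heterozygous arrays for 12 of the 29, against 25.4% of all genes. Where 18.3% and 19.3% of all genes lay above, 3 of the 29 did in each comparison. Among these, named outside the rule, were Cebpa, a myeloid transcription factor that other tissues also use, with 73.3 and 53.3 in homozygous, 18.6 and 22 in heterozygous and 31.5 and 10.9 in wild-type arrays, and Fyb, a leukocyte adaptor, with 54.7 and 51.7 in homozygous, 34.2 and 38.3 in heterozygous and 4.4 and 21.5 in wild-type arrays. Over the list the median with signals raised to 25 was -0.18 against wild-type and -0.35 against heterozygous arrays. Adgre1, the F4/80 antigen of mouse macrophages and a gene named outside the rule, read 41.5 and 61.8 in homozygous, 122 and 150 in heterozygous and 141 and 114 in wild-type arrays and did not pass.

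Of 7 ligands for myeloid receptors, 1 was below both other groups without overlap and 6 overlapped, a smaller share than that of all genes below (26.3% and 25.4%). Csf1, the ligand of CSF1R, read 1692 and 3490 in homozygous, 2662 and 2065 in heterozygous and 2455 and 2465 in wild-type arrays. Its log2 difference from wild-type was -0.02 ± 0.40. Ccl2, which attracts monocytes through CCR2, read 535 and 3423 in homozygous, 1812 and 755 in heterozygous and 1747 and 2153 in wild-type arrays, with the lowest and the highest value both in the homozygous pair. Il34, the other CSF1R ligand, read 59.2 and 61.9 in homozygous, 200 and 180 in heterozygous and 144 and 184 in wild-type arrays. It fell by 1.65 ± 0.24 against heterozygous arrays (adjusted p = 0.0398 by limma) and had a difference of -1.43 ± 0.24 from wild-type arrays that did not pass (adjusted p = 0.0502 by limma).

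Lysosomal genes that all cells use were lower too, with a smaller median difference. Both homozygous arrays lay under both arrays of either other group for 15 of 15 measured genes, against 26.3% (wild-type) and 25.4% (heterozygous) of all genes, with a median log2 difference of -1.23 against wild-type and -1.41 against heterozygous arrays. Ctsl, cathepsin L, read 6666 and 13528 in homozygous, 18081 and 32024 in heterozygous and 22111 and 22454 in wild-type arrays. Grn, progranulin, fell by 1.41 ± 0.22 against heterozygous arrays (adjusted p = 0.0404 by limma) and was the only 1 of the 15 called, where 3.22% of all tested genes were, with 0 called against wild-type arrays, where 2.25% were (11 of the 15 at an unadjusted p under 0.05 by limma). Cyba, the partner of Cybb in the oxidase, read 161 and 3039 in homozygous, 1931 and 2802 in heterozygous and 2218 and 1457 in wild-type arrays, so homozygous array 2 held the highest value.

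**Figure D5:**
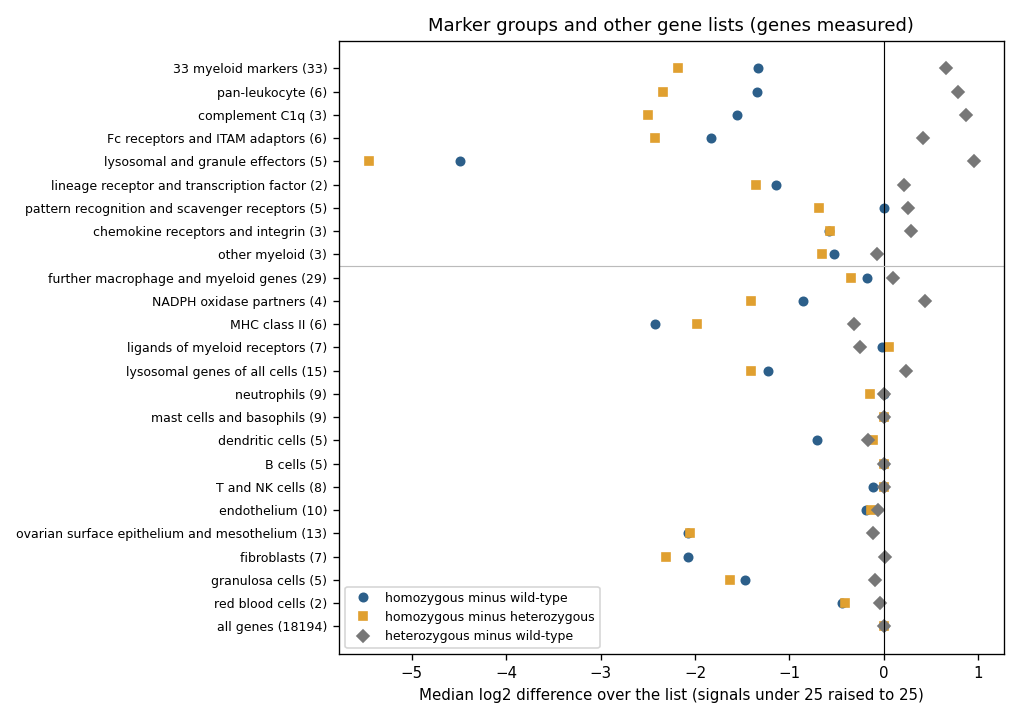
Median log2 difference over each marker group (above the line) and each other list (below it), with signals under 25 raised to 25 and the number of measured genes in brackets. The lysosomal and granule effectors lie at -4.49 and -5.45 (homozygous minus wild-type and minus heterozygous), MHC class II genes at -2.43 and -1.98, and lists of B, T and NK, mast cell and neutrophil markers between -0.15 and 0, while dendritic cell markers lie at -0.70 and -0.11.

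Markers of other white blood cells were mostly dim, with a few exceptions. Of 9 measured neutrophil genes 3 were at or under 25 in all 6 arrays and 0 were above 25 in all 6, with a summed signal of 125 to 232 in homozygous, 242 to 362 in heterozygous and 204 to 480 in wild-type arrays. Of 5 B cell genes 3 and of 8 T and NK cell genes 4 were at or under 25 in all 6 arrays, against 2339 of all 18194 genes. Summed signals were 161 to 249 in homozygous, 94.6 to 203 in heterozygous and 187 to 195 in wild-type arrays for B cells, and 274 to 288, 347 to 465 and 352 to 457 in the same order for T and NK cells. The tested member of each list was brighter: Camp, a neutrophil granule peptide, lay between 4.1 and 298, Ighm, the heavy chain of IgM, between 63.4 and 213, and Zap70, a T cell kinase, between 221 and 368. None of them passed. The homozygous arrays overlapped both other groups for Camp, lay above the heterozygous arrays alone for Ighm and below both other groups for Zap70. Of 5 dendritic cell genes, 3 lay below both wild-type and 2 below both heterozygous arrays, where 26.3% and 25.4% of all genes did. Their median log2 difference was -0.70 and -0.11. Zbtb46, a dendritic cell transcription factor, read 84.6 and 404 in homozygous, 705 and 439 in heterozygous and 572 and 682 in wild-type arrays and did not pass. Ccr7, of the same list and named outside the rule, went the other way in homozygous array 1. It read 517 and 9.2 in homozygous, 4.1 and 16.8 in heterozygous and 6.3 and 1.2 in wild-type arrays and was not tested. The summed signal of the 33 myeloid markers was 1123 to 1175 in homozygous, 11428 to 13042 in heterozygous and 6611 to 7226 in wild-type arrays.

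The homozygous arrays also differed in genes of the cells themselves, and the part of these differences in the marker result was not tested. Of 13 surface epithelium and mesothelium genes, 11 were above 25 in all 6 arrays, as were 10808 of all 18194 genes. Upk3b, a uroplakin of mesothelium, read 6198 and 18766 in homozygous, 25169 and 27977 in heterozygous and 27255 and 30940 in wild-type arrays. In homozygous array 1, Aldh1a2 and Cdh1 were under background, at 1.1 and 20.3, and Aldh1a2, an enzyme of retinoic acid synthesis, read 1979 in homozygous array 2, 19538 and 17988 in heterozygous and 17461 and 18974 in wild-type arrays. Krt7, a keratin of simple epithelia, read 60.5 and 1729 in homozygous, 16318 and 11838 in heterozygous and 17640 and 17717 in wild-type arrays. Upk1b read 4628 and 4584 in homozygous, 21419 and 17037 in heterozygous and 20757 and 29097 in wild-type arrays. It alone of the 13 passed (adjusted p = 0.0270 and 0.0360 by limma against wild-type and heterozygous arrays). By Upk1b, Upk3b, Aldh1a2 and Krt7 the labelled cell type was less clearly marked in the homozygous arrays, but genes here were named after their values were seen. Wt1 stayed bright, with 5949 and 8457 in homozygous, 14529 and 13269 in heterozygous and 15008 and 14759 in wild-type arrays, and did not pass. Not every gene of the list was lower. Krt18 read 25436 and 5623 in homozygous, 11707 and 6729 in heterozygous and 6247 and 12233 in wild-type arrays. Lrrn4 read 1938 and 9900 in homozygous, 10669 and 8028 in heterozygous and 10776 and 7998 in wild-type arrays. Both homozygous arrays lay below both wild-type arrays for 10 of the 13 genes and below both heterozygous arrays for 11, against 26.3% and 25.4% of all genes. The median log2 difference of this list was -2.07 against wild-type and -2.05 against heterozygous arrays. Of 4 tested endothelial genes 3 fell in each comparison with homozygous cells, where 2.25% (against wild-type) and 3.22% (against heterozygous) of all tested genes fell, among them Kdr, a VEGF receptor, and Icam2, an adhesion molecule that leukocytes also carry. Icam2 read 4.7 and 4.8 in homozygous, 1098 and 876 in heterozygous and 642 and 1403 in wild-type arrays, and Kdr read 35.9 and 60.4 in homozygous, 1104 and 1483 in heterozygous and 2469 and 1213 in wild-type arrays. Eng, the fourth tested and named after its values were seen, read 127 and 164 in homozygous, 127 and 103 in heterozygous and 116 and 136 in wild-type arrays. Over all 10 endothelial genes the median was -0.18 against wild-type and -0.13 against heterozygous arrays, and 2 were at or under 25 in all 6 arrays, against 2339 of all 18194 genes. The SD of the log2 difference within the homozygous pair was 1.30. The transcript of the mutated gene was not analysed here.

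All calls rest on a spread pooled over 3 groups of 2 arrays, and leaving out 1 array, so that the lone array of its group is assumed to vary like the other groups, changed how many markers passed limma. Against wild-type arrays 6 lower markers became 9 lower without homozygous array 1, with C1qb, Trem2 and Cd14 added, 8 lower and Cd14 higher without homozygous array 2, with Csf1r and Fcgr2b added to the lower ones, and 0 without either heterozygous or either wild-type array. Against heterozygous arrays 8 became 11 and 10 without homozygous arrays 1 and 2, 1 without either wild-type array, and 0 without either heterozygous array. Of all 10916 tested genes, 548 were called lower and 125 higher against wild-type arrays without homozygous array 1, and 1899 lower and 764 higher without homozygous array 2. Without the filter 0 and 3 markers passed against wild-type and heterozygous arrays, and 0 and 1 passed when only the groups compared were fitted.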

How the data were processed

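The deposited values are linear intensities per probe set from 6 Affymetrix arrays. The submitters' processing notes name RMA, with no version, but the deposited intensities have the form of scaled signals: the mean of the middle 96% of probe sets was 500 in each array, and array medians ran from 41.1 to 60.6. They were converted to log2 with no further normalization. Of 45101 probe sets, 34958 had 1 gene symbol in GEO's platform annotation, 932 several and 9211 none, and 34754 were matched to current symbols through the Entrez identifier. Each of 18194 genes took the probe set with the highest mean log2 signal. Genes whose mean reached the 40th percentile, 10916 in number and starting at a geometric mean of 60.3, entered 1 model of 3 group means in limma (version 3.58.1, R version 4.3.3), checked on simulated data. It had 3 residual degrees of freedom, and p-values were adjusted over those genes by Benjamini and Hochberg's method at 0.05. A fold against a group whose arrays were both at or under 25 is a lower bound, taken with each signal under 25 raised to 25. The adjusted p printed beside it belongs to the fit of unraised signals. Precision is limited by 2 arrays a group.

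The members and lists were chosen with earlier results of these data known. All members could be named, and from each other list the genes that passed and up to 3 with the highest mean signal. Alternatives were other filters, normalizations, probe set rules and array subsets. Figures were drawn with matplotlib 3.10.9.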

Additional observations from a re-analysis of the deposited data

How the results depend on the processing

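With 2 arrays a group, the number of markers called depended on the fit. The called markers kept their direction in all 211 repeats of their tests (99 on the same side of the threshold, 112 no longer past it). Many repeats left the signals and arrays of the compared groups unchanged, such as those with no filter, a replicate block or array weights. There the difference itself could not change, so the kept direction was fixed in advance and is no support. Homozygous against wild-type, 6 markers of 15 tested became 0 of 33 with no filter (18 at an unadjusted p under 0.05), 1 with a filter at the 60th percentile, where only Csf1r and Fcgr2b were tested and Fcgr2b passed, 0 with only the 2 groups fitted, 0 with a replicate block and 0 without the 2 close arrays (heterozygous 1 and wild-type 2), and lay between 0 and 9 with 1 array left out (without homozygous array 2, 8 lower and Cd14 higher). Homozygous against heterozygous, 8 became 3 (Lyz1, Lyz2 and Tyrobp), 1 (Fcgr2b), 1, 2 and 0 in the same settings, and lay between 0 and 11 with 1 array left out. The counts were 5 and 6 with arrays centred on their medians, 6 and 7 with quantile normalization, 9 and 9 with a gene's probe sets averaged, 7 and 8 with signals raised to 25, and 6 and 6 with array weights. Heterozygous against wild-type, 0 markers were called by limma in every setting run, and between 0 and 7 were higher at an unadjusted p under 0.05. The cause of these changes was not tested.

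Over all genes, 291 calls against wild-type became 0 with no filter, 0 with only the 2 groups and 0 with a replicate block, 605 with signals raised to 25, 190 with a gene's probe sets averaged, and 673 and 2663 without homozygous arrays 1 and 2. Against heterozygous arrays, 446 became 17, 9, 19, 733, 281, 728 and 2841 in the same order. Arrays of the same number deviated from their group means with correlations of 0.16 (homozygous and heterozygous), -0.10 (homozygous and wild-type) and -0.30 (heterozygous and wild-type), so the replicate numbers were not taken to pair the samples.

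At a threshold of 50 the markers above it numbered 8 and 4 in the homozygous, 26 and 23 in the heterozygous and 27 and 19 in the wild-type arrays, and wild-type array 1 thus kept its count. At 100 they numbered 2 and 2 in the homozygous arrays, 18 in heterozygous array 2, and 17 and 10 in the wild-type arrays. Signal over background limits dim markers: Cd163 gave no measurable difference, and that of Spi1 between homozygous and heterozygous arrays was bounded only at 1.17-fold.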
